A study of Canis lupus familiaris with 8 samples.

Results

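Chemokines are small secreted proteins that leukocytes follow along a gradient, and they are grouped as CXC or CC by the spacing of their first cysteines. CXCL8, CXCL10, CCL2 and CCL5 were measured in the hearts of dogs with hyperhomocysteinemia (HHcy), a raised blood level of homocysteine, and in control hearts. Another chemokine of the set, CXCL12, carried no probe set under its symbol in the platform annotation and was left out. The 4 genes had 5 probe sets among the 10549 that the annotation ties to a single symbol, which name 6540 genes. They were chosen by the fold changes between HHcy and control hearts, which were already known, CXCL8 for being among the called probe sets. Their values in that comparison are therefore given as a description without a test.

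For 2 weeks 4 male dogs drank water with added methionine, which induces HHcy, and another 4 male dogs were controls. All weighed 23 to 27 kg, and 1 Affymetrix canine array was hybridised with total RNA from the cardiac tissue of each. The labels used here give no breed, age, heart chamber or homocysteine level. They number the HHcy dogs 5 to 8 and the control dogs 1 to 4, and these numbers only name the dogs.

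In resting myocardium chemokines are made at low levels by endothelial cells, fibroblasts, resident macrophages and myocytes, and cytokines such as interleukin 1 raise them through NF-kB and AP-1. CXCL8, or interleukin 8, draws neutrophils through the receptors CXCR1 and CXCR2, and mice and rats lack the gene. CXCL10 is induced by interferon gamma and draws activated T cells through CXCR3. CCL2 recruits monocytes through CCR2, and CCL5 recruits T cells, monocytes and eosinophils.

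Signals are MAS5 probe set intensities on a linear scale, and fold changes are differences of log2(signal + 24), HHcy minus control, with 24 the pseudocount. A probe set was tested when its mean log2 value lay above that of the dimmest 40%, which left 14301 probe sets and 5015 named genes. Of the 5 chemokine probe sets 4 were tested, and the dimmer of the 2 for CXCL8 was not. With limma and Benjamini-Hochberg adjustment at 0.05, 14 probe sets (0.0979%) were called, all higher in HHcy. There were 15 higher and 7 lower with median scaling, 61 higher and 15 lower with array weights, and 22 higher and 9 lower without HHcy 8. The brighter CXCL8 probe set was 1 of the 14, which is how CXCL8 was chosen, and those of CXCL10, CCL2 and CCL5 were not among them. The median log2 fold change over all tested probe sets was 0.15, and it was 0.011 with quantile scaling and -0.18 with median scaling.

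CXCL8 was the chemokine with the highest fold change of the 4, and every HHcy heart lay far above every control heart. On the brighter probe set the signal was 885, 1649, 441 and 423 in HHcy dogs 5, 6, 7 and 8, against 55.2, 62.3, 44.2 and 46.3 in control dogs 1, 2, 3 and 4. The lowest HHcy signal was 6.80 times the highest control signal, so the groups did not overlap. Mean signals were 850 ± 574 in HHcy hearts and 52.0 ± 8.36 in control hearts (SD, n = 4 each), a log2 fold change of 3.31 ± 0.41 (SE), or 9.91-fold on the log2(signal + 24) scale. All 4 control signals lay under 69.7, the signal at which the filter on dim probe sets was set, so the probe set was tested only because of its HHcy signals. The size of the fold therefore depends on the pseudocount, with a log2 fold change of 2.49 ± 0.35 at 96 and 3.66 ± 0.43 at 6.

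The HHcy dogs differed more from each other than the control dogs did. The highest signal was 3.90 times the lowest in HHcy and 1.41 times in controls. HHcy 6 was highest, HHcy 5 next, and HHcy 7 and HHcy 8 lay close together. Without HHcy 5 and HHcy 6 the log2 fold change was 2.59 ± 0.38 (SE).

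The dimmer CXCL8 probe set gave 165, 199, 18.8 and 107 in HHcy dogs 5, 6, 7 and 8, against 43.3, 71.0, 7.24 and 16.5 in control dogs 1, 2, 3 and 4. Here 3 of the 4 HHcy dogs lay above all controls, while HHcy 7 lay among them, under the pseudocount. HHcy 6 and HHcy 5 were again the highest. No fold is given for this probe set, because 2 of its 4 control signals lay under the pseudocount.

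**Figure D1:**
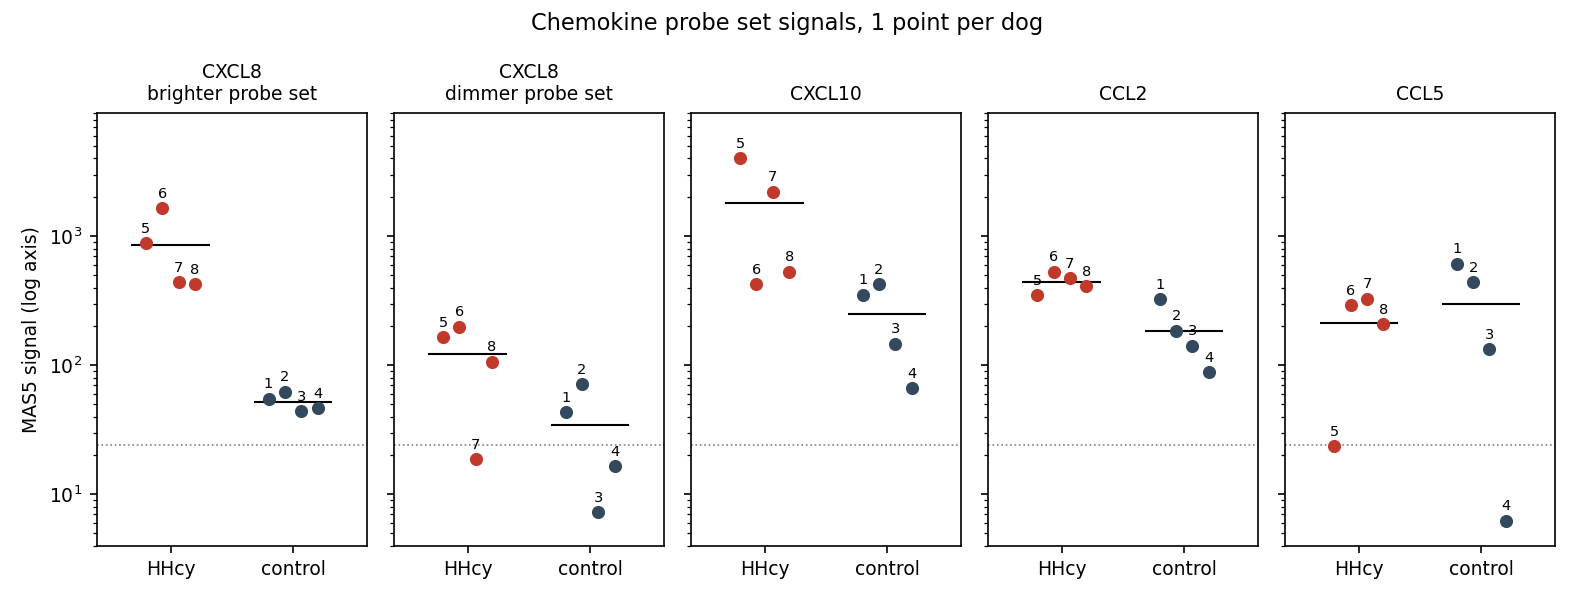
MAS5 signal (log axis) of each chemokine probe set, with 1 point per dog labelled by its number, HHcy left and control right. Horizontal bars are means and the dotted line is the pseudocount of 24. On the brighter CXCL8 probe set the 4 HHcy dogs lie between 423 and 1649 and the 4 control dogs between 44.2 and 62.3, whereas CCL5 overlaps between the groups.

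CXCL10, the interferon-induced T cell attractant, was far higher in a pair of the HHcy dogs and close to the upper controls in the others. Its signal was 4004, 425, 2214 and 531 in HHcy dogs 5, 6, 7 and 8, against 352, 423, 147 and 66.4 in control dogs 1, 2, 3 and 4. HHcy 6, highest for CXCL8, was the lowest HHcy dog here, and its 425.0 stood barely above the 423.1 of control 2. With quantile scaling the lowest HHcy signal was 368 and the highest control signal 428, and with median scaling 305 and 439, so the groups then overlapped. Mean signals were 1793 ± 1686 in HHcy hearts and 247 ± 168 in control hearts (SD, n = 4 each), and the log2 fold change was 2.44 ± 0.71 (SE). Without HHcy 5 it was 1.87, and without HHcy 6 it was 2.92.

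CCL2, the main monocyte attractant, was more even among HHcy dogs than among control dogs. Its signal was 350, 531, 475 and 410 in HHcy dogs 5, 6, 7 and 8, against 324, 185, 142 and 87.9 in control dogs 1, 2, 3 and 4. The highest HHcy dog had 1.52 times the signal of the lowest, and among controls this ratio was 3.68. HHcy 5 stood just above control 1, with a ratio of 1.08, and under quantile scaling (326 in HHcy against 332 in controls) and median scaling (286 against 326) that order turned round. The log2 fold change was 1.26 ± 0.35 (SE), from mean signals of 441 ± 78.6 in HHcy hearts and 185 ± 101 in control hearts (SD, n = 4 each).

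CCL5, which attracts T cells and eosinophils, showed no separation of the groups. Its signal was 23.5, 293, 328 and 207 in HHcy dogs 5, 6, 7 and 8, against 613, 441, 134 and 6.23 in control dogs 1, 2, 3 and 4. The lowest HHcy dog and the lowest control dog both lay under the pseudocount, and the highest control signal was 98.3 times the lowest. The log2 fold change was -0.052 ± 0.90 (SE), an error far larger than the value. Its sign depended on the arrays: it was 0.61 without HHcy 5 and -0.95 without control 4.

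Among the 4 tested chemokine probe sets, the lowest HHcy signal exceeded the highest control signal for 3, CXCL8, CXCL10 and CCL2, as it did for 7.49% of all tested probe sets. Under quantile or median scaling this held for CXCL8 alone. The 4 genes did not share an order among the HHcy dogs. CXCL8 and CCL2 were highest in HHcy 6, CXCL10 was highest in HHcy 5 and CCL5 in HHcy 7. Among controls, dog 4 was lowest for CXCL10, CCL2 and CCL5, but dog 3 for CXCL8. The SD of log2 values was 0.90 in HHcy and 0.16 in controls for CXCL8, 1.54 and 1.07 for CXCL10, 0.25 and 0.68 for CCL2, and 1.34 and 1.98 for CCL5 (n = 4 each).

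**Figure D2:**
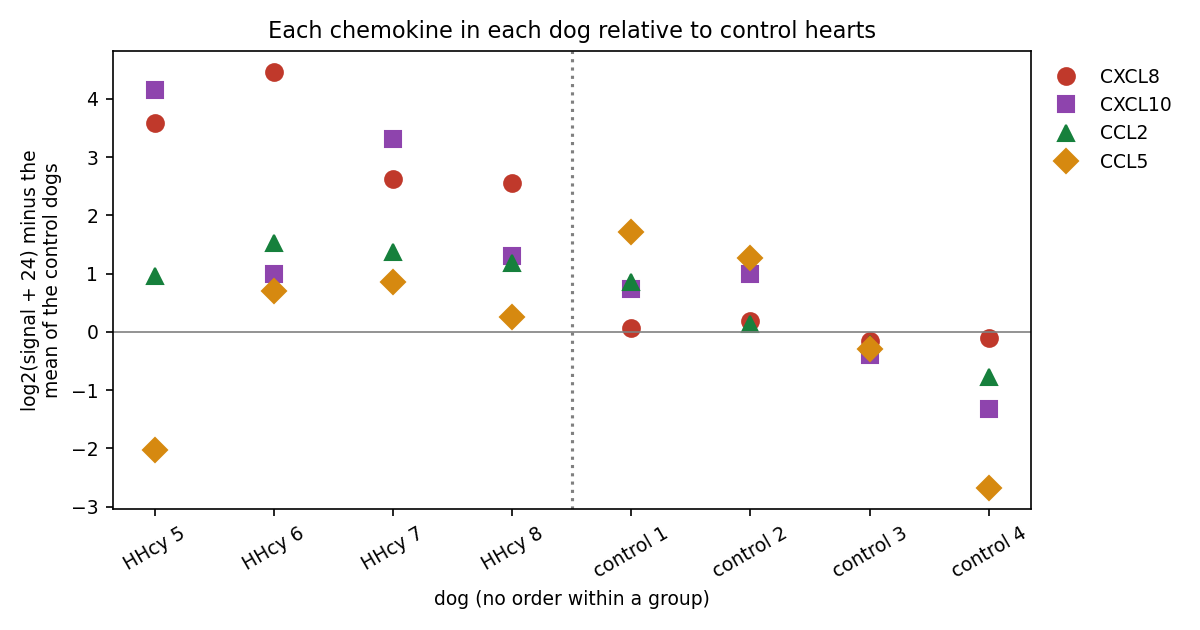
log2(signal + 24) of each chemokine in each dog, minus the mean of the 4 control dogs, by its brightest probe set. CXCL8 runs from 2.56 in HHcy 8 to 4.47 in HHcy 6, CXCL10 from 0.99 in HHcy 6 to 4.16 in HHcy 5, and CCL5 is at -2.03 in HHcy 5.

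Of 34 other chemokine ligands listed, 8 were on the array under a single symbol and 7 were tested, each by the brightest probe set of its gene. limma called 0 of the 7, against 0.140% of all tested genes. At an unadjusted p under 0.05, 2 were higher and 0 lower, where 11.6% of all tested genes were higher and 4.73% lower. Their median log2 fold change was 0.48, and that over all tested genes was 0.14. CCL23, a CC ligand that in humans acts on CCR1, had 2311 ± 369 in HHcy hearts and 854 ± 384 in control hearts (SD, n = 4 each), a log2 fold change of 1.53 ± 0.35 (SE, limma adjusted p 0.121). Its signals were 2825, 2254, 2217 and 1948 in HHcy dogs 5 to 8, against 1187, 717, 1140 and 373 in control dogs 1 to 4, without overlap. CXCL16, a membrane-bound ligand of CXCR6, had 301 ± 123 in HHcy hearts and 130 ± 25.3 in control hearts (SD, n = 4 each; log2 fold change 1.01 ± 0.33 SE, limma adjusted p 0.182).

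The other tested ligands had smaller values. CCL3 and CCL4, both macrophage inflammatory proteins, had log2 fold changes of 0.59 ± 0.48 and 0.48 ± 0.31 (SE). Those of CCL14, CCL17, a ligand of CCR4, and CCL21, a ligand of CCR7, were 0.084, -0.031 and -0.13. For CCL23 and CXCL16 the lowest HHcy signal exceeded the highest control signal, which was so for 8.30% of tested genes. CCL16 was too dim to test.

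**Figure D3:**
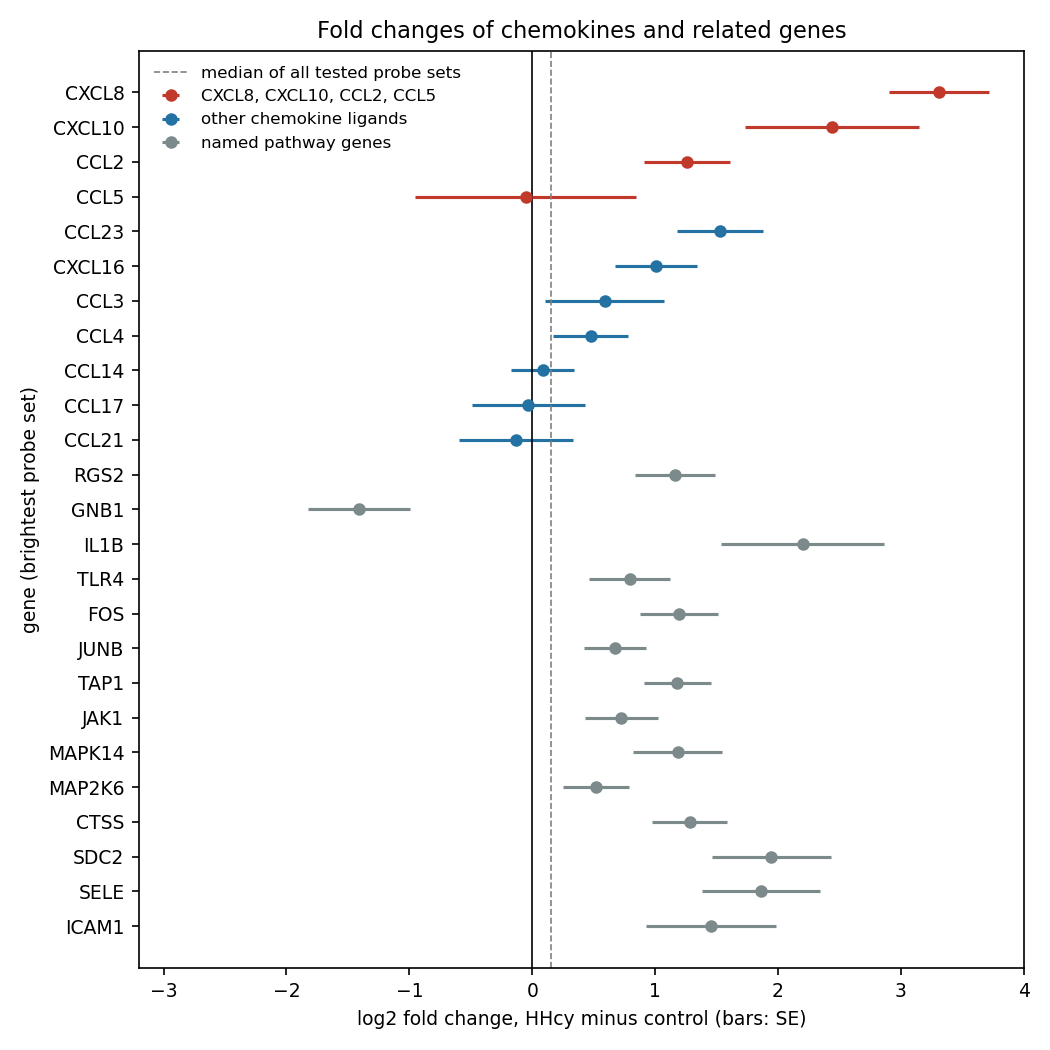
log2 fold change, HHcy minus control, with SE bars, for the 4 chemokines (red), the 7 other tested ligands (blue) and the named genes of the other lists (grey), each by its brightest probe set. CXCL8 has the highest value, 3.31, CCL5 sits at -0.052 with the widest bar, and GNB1 is the lowest at -1.41.

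The receptors could hardly be read. Of 24 listed, only CXCR2, a receptor of CXCL8, and CCR3 and CCR4 were on the array under a single symbol, and 0 of the 3 were bright enough to test. CXCR2 had a mean signal of 56.7 in HHcy and 58.7 in controls. CCR3 had 39.3 in HHcy and 60.9 in controls, and CCR4 13.6 in HHcy and 41.5 in controls.

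Genes that carry the receptor signal inside the cell were tested for 6 of 30 listed, and limma called 0 of them. Of the 6, 3 were higher and 1 lower at an unadjusted p under 0.05 (11.6% and 4.73% of all tested genes). RGS2, which shortens G protein signalling, had a log2 fold change of 1.16 ± 0.32 (SE, limma adjusted p 0.150). GNB1, a G protein beta subunit, had -1.41 ± 0.42 (SE, limma adjusted p 0.162), but its other tested probe sets gave values from -0.79 to 0.60.

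Of 27 cytokines, receptors and adaptors that induce chemokines, 10 were on the array and 2 were tested, with 0 called. Both were higher at an unadjusted p under 0.05, where 11.6% of all tested genes were higher and 4.73% lower. IL1B, interleukin 1 beta and a strong inducer of CXCL8, had 1574, 2199, 1260 and 1241 in HHcy dogs 5 to 8, against 1365, 454, 205 and 60.4 in control dogs 1 to 4. Control 1 overlapped with the HHcy dogs. The log2 fold change was 2.20 ± 0.66 (SE, limma adjusted p 0.162), and another IL1B probe set had 0.038. TLR4, the receptor for bacterial lipopolysaccharide, had 0.79 ± 0.33 (SE, limma adjusted p 0.248). IL6 and TNF were too dim to test, with mean signals of 38.5 and 13.5 in HHcy against 16.9 and 11.1 in controls.

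The transcription factors that act on chemokine promoters were thinly covered, with 3 of 27 listed NF-kB, AP-1 and C/EBP genes tested and 0 called. Among the 3, 2 were higher and 0 lower at an unadjusted p under 0.05 (11.6% and 4.73% of all tested genes). FOS, an AP-1 subunit, had 401 ± 107 in HHcy hearts and 163 ± 49.0 in control hearts (SD, n = 4 each; log2 fold change 1.19 ± 0.32 SE, limma adjusted p 0.144). JUNB, another AP-1 subunit, had a log2 fold change of 0.67 ± 0.26 (SE, limma adjusted p 0.219). NFKBIA, the inhibitor of NF-kB and itself one of its targets, had -0.77 ± 0.36 (SE, limma adjusted p 0.290).

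For CXCL10, 11 of 26 listed genes of the interferon axis were tested and 0 called. Their median log2 fold change was 0.56, beside 0.14 over all tested genes. Of the 11, 2 were higher and 0 lower at an unadjusted p under 0.05 (11.6% and 4.73% of all tested genes). TAP1, an interferon-induced peptide transporter, had 465 ± 77.5 in HHcy hearts and 195 ± 55.4 in control hearts (SD, n = 4 each; log2 fold change 1.18 ± 0.27 SE, limma adjusted p 0.121). JAK1, a kinase of the interferon receptors, had 0.73 ± 0.29 (SE, limma adjusted p 0.240), while its other probe sets ran from -0.84 to 0.46. IFNG, interferon gamma itself, had a log2 fold change of -0.66 ± 0.42 (SE, limma adjusted p 0.424). ISG15, an interferon-induced protein modifier, had -0.61 ± 0.40, and MX1, an antiviral GTPase, had 0.84 ± 0.48 (SE).

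Chemokine messages are short-lived, and 10 of 22 listed genes of their stability were tested, with 0 called. Only 1 was higher and 0 lower at an unadjusted p under 0.05 (11.6% and 4.73% of all tested genes). The median log2 fold change of the 10 was -0.27. MAPK14, the p38 kinase, whose pathway stabilises CXCL8 mRNA, had 1.19 ± 0.36 (SE, limma adjusted p 0.167), and its other tested probe set had 1.35. MAP2K6, which activates p38, had 0.52 ± 0.27 (SE, limma adjusted p 0.328), and its other tested probe set had -0.025.

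Secreted chemokines are held on heparan sulfate and trimmed by proteases, and 12 of 28 listed genes for these steps were tested, with 0 called. Of the 12, 5 were higher and 0 lower at an unadjusted p under 0.05 (11.6% and 4.73% of all tested genes). Syndecan SDC2, a heparan sulfate proteoglycan, had 634, 1888, 548 and 480 in HHcy dogs 5 to 8, against 303, 65.4, 244 and 186 in control dogs 1 to 4. Its log2 fold change was 1.95 ± 0.49 (SE, limma adjusted p 0.140), and 0.87 to 2.18 over the 19 alternatives run. HHcy 6 was highest, as for CXCL8, and also had the lowest cardiomyocyte sum and the highest actin 3'/5' ratio, given below. The cathepsin CTSS had 1.28 ± 0.30 (SE, limma adjusted p 0.126), although other CTSS probe sets gave 0.090 and 0.79.

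Of 24 listed genes for adhesion and passage of leukocytes through the vessel wall, 10 were tested and 0 called. Among the 10, 2 were higher and 0 lower at an unadjusted p under 0.05 (11.6% and 4.73% of all tested genes). E-selectin SELE, on which leukocytes roll, had 173, 250, 175 and 371 in HHcy dogs 5 to 8, against 27.5, 129, 10.96 and 64.4 in control dogs 1 to 4. The log2 fold change was 1.86 ± 0.48 (SE, limma adjusted p 0.141), and the highest HHcy dog was HHcy 8, which had the lowest CXCL8 signal of its group. The mean SELE signal in controls, 58.0, lay under the 69.7 at which the filter was set, and the lowest control signal under the pseudocount. SELE was thus tested only because of its HHcy signals. The size of its fold depends on the pseudocount, with a log2 fold change of 1.16 at 96 and 2.29 at 6. ICAM1, the ligand of leukocyte integrins, had 1.45 ± 0.53 (SE, limma adjusted p 0.208), and as little as 0.82 with 1 array left out. Its signal was 25.1 in control 2, close to the pseudocount, 219 to 322 in the other controls and at least 342 in HHcy dogs. VCAM1, which binds monocytes and lymphocytes, had a log2 fold change of 0.16 ± 0.41 (SE). ITGB2, the shared chain of the leukocyte integrins, had -0.97 ± 0.58 (SE, limma adjusted p 0.396).

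Markers of cells that make or follow these chemokines were read beside them. In such bulk samples, a change in the number of cells of a type and in RNA per cell cannot be told apart. Of 23 neutrophil markers, 3 were on the array under a single symbol. ELANE, neutrophil elastase, had a mean signal of 46.1 in HHcy and 47.9 in controls, and CXCR2 is given above. Only the integrin ITGAM was bright enough to test (log2 fold change 0.27 ± 0.34 SE, limma adjusted p 0.690). The summed signal of the 3 was 176 to 604 in HHcy and 295 to 369 in controls, so the range in HHcy enclosed that of controls.

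The summed signal of monocyte and macrophage markers separated the groups, as CXCL8 did. All 13 on the array, of 18 listed, were tested, with 0 called (9 higher and 0 lower at an unadjusted p under 0.05) and a median log2 fold change of 1.20. Over all tested genes 11.6% were higher and 4.73% lower at that p, and the median was 0.14. Their summed signal was 12999 to 23940 in HHcy and 7071 to 9796 in controls, without overlap, and it was highest in HHcy 6. CD14, a co-receptor for lipopolysaccharide, had 1.42 ± 0.32 (SE, limma adjusted p 0.121), and the complement chain C1QA had 0.13 ± 0.32. Their part in the values of CXCL8 and CCL2 was not tested.

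Of 18 T and NK cell markers, 7 were on the array and 4 were tested, with 0 called. Among the 4, 1 was higher and 0 lower at an unadjusted p under 0.05 (11.6% and 4.73% of all tested genes). The summed signal of the 7 was 999 to 1275 in HHcy and 416 to 906 in controls, without overlap. CD4 had the largest mean signal in it, 469 in HHcy and 148 in controls. Taken singly, 1 of the 4 tested had every HHcy dog above every control dog, as had 8.30% of all tested genes. The median of the 4, as log2 value minus the control mean, overlapped between the groups. It was 0.077 to 0.95 in HHcy dogs and -0.43 to 0.68 in control dogs. CD3D, a chain of the T cell receptor complex, had a log2 fold change of 0.56 ± 0.32 and CD4, which dog neutrophils also carry, 1.46 ± 0.46 (SE, limma adjusted p 0.174), with another CD4 probe set at -1.29. Fibroblast markers (7 of 12 tested, 0 called) summed to 34511 to 80683 in HHcy and 21400 to 33258 in controls, also without overlap. Of the 7, 5 were higher and 0 lower at an unadjusted p under 0.05 (11.6% and 4.73% of all tested genes). Taken singly, 1 of the 7 had every HHcy dog above every control dog. The largest mean signals in this sum were those of DCN and DPT, 18082 and 16408 in HHcy and 10676 and 9977 in controls. Endothelial markers (4 of 12 tested, 0 called, 0 at an unadjusted p under 0.05) summed to 22969 to 32723 in HHcy and 21487 to 29349 in controls. Most of this sum was PECAM1, with means of 23345 in HHcy and 19334 in controls. Log2 fold changes of the 4 ran from -0.59 for VWF to 0.26 for PECAM1, and other VWF probe sets gave -0.58 and 1.29. Other tested PECAM1 probe sets gave values from -0.23 to 0.32. Smooth muscle and pericyte markers (4 of 8 tested, 0 called, 0 at an unadjusted p under 0.05) summed to 60360 in HHcy 6, 6582 to 9828 in the other HHcy dogs and 5984 to 9806 in controls. The part of these cell types in the chemokine values was not tested.

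Cardiomyocyte markers, which check the tissue label, had a far lower summed signal in HHcy 6 than in every other heart. The summed signal of the 11 on the array was 16497 in HHcy 6, 225831 to 254385 in the other HHcy dogs and 210474 to 327260 in controls. Single markers in HHcy 6 were uneven, from 24.5 for TNNT2 and 27.4 for MYL3 to 3542 for MYL2 and 6889 for MYH7. limma called 0 of the 11 (0 at an unadjusted p under 0.05, where 11.6% of all tested genes were higher and 4.73% lower). The array with the lowest myocyte sum was thus the one with the highest CXCL8 and CCL2 signals. Without HHcy 6 the log2 fold change was 2.92 for CXCL8 and 1.17 for CCL2.

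RNA quality differed as well. The ratio of 3' to 5' signal of the actin control probe sets was 15.3 in HHcy 5 and 600 in HHcy 6, 1.69 to 2.67 in the other HHcy dogs and 0.378 to 2.49 in controls. HHcy 5 and HHcy 6 were the dogs with the highest CXCL8 signals. The GAPDH ratio was 3.56 to 17.2 in HHcy and 1.46 to 3.76 in controls. Averaged on the log2 scale, the actin and GAPDH ratios gave 4.02, 6.31, 1.89 and 1.29 in HHcy dogs 5, 6, 7 and 8. Control dogs had -0.43 to 1.51, so HHcy 5, HHcy 6 and HHcy 7 lay above every control dog and HHcy 8 did not. The averaged ratio thus went largely with the group, which limits how far a fit can part them. This average was also put in the fit as a covariate. The log2 fold change was then 2.51 ± 0.39 (SE) for CXCL8, 2.91 for CXCL10, 1.18 for CCL2 and 0.29 for CCL5.

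**Figure D4:**
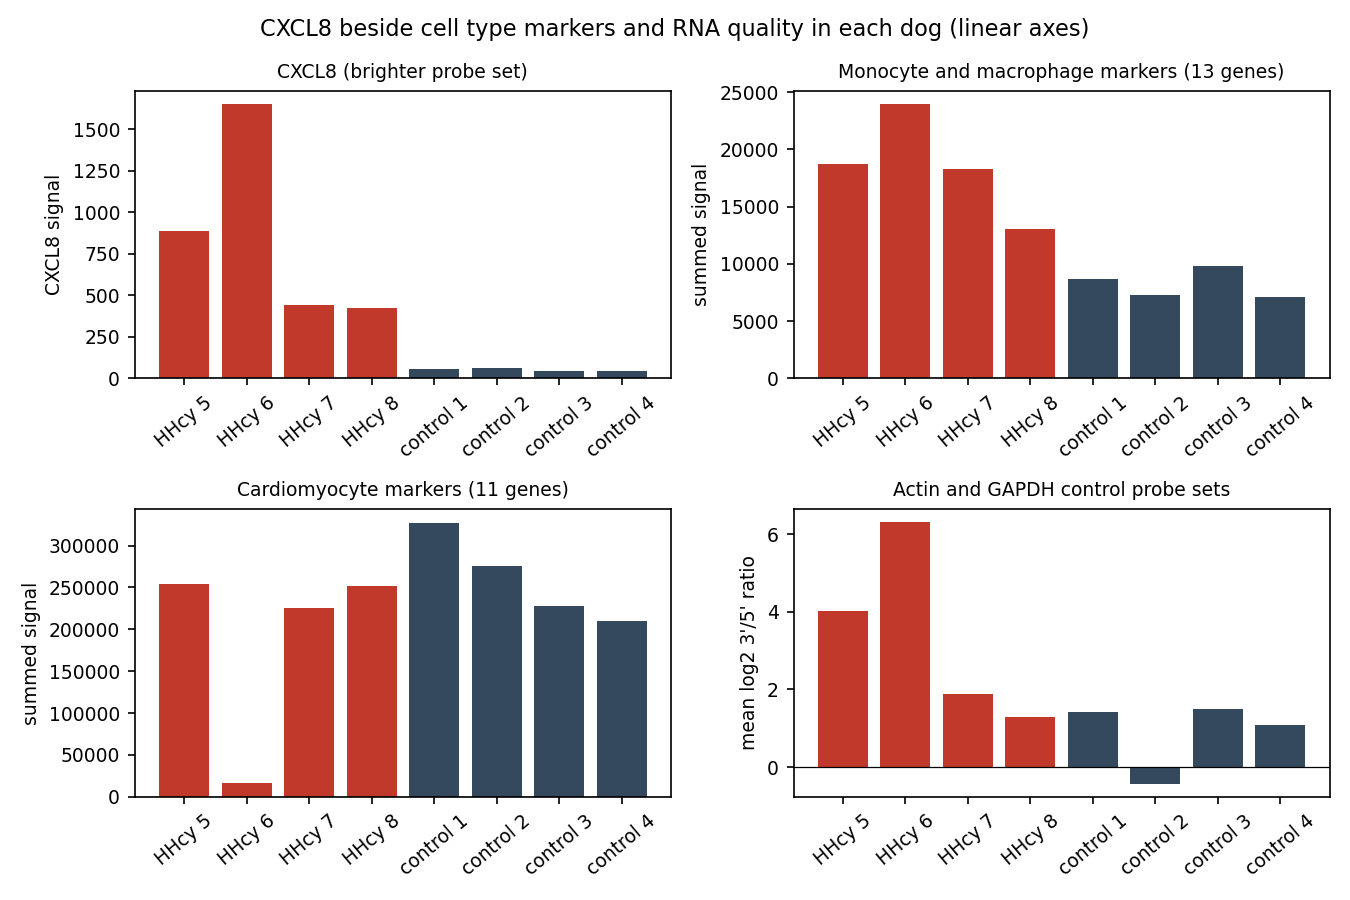
CXCL8 signal, summed signals of monocyte and macrophage markers and of cardiomyocyte markers, and the 3'/5' ratio (log2, averaged over actin and GAPDH), in each dog (linear axes, HHcy red and control dark). HHcy 6 has the highest CXCL8 signal, 1649, the highest macrophage sum, 23940, the lowest cardiomyocyte sum, 16497, and the highest ratio, 6.31.

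Several chemokine genes lie side by side, in an order taken from the RefSeq gene table of the UU_Cfam_GSD_1.0 assembly. Within 3 protein-coding genes on either side, CXCL8 has PPBP, CXCL10 has CXCL11, and CCL2 has CCL7, CCL8 and CCL13, and none of these carried a probe set here. CCL5 has CCL16, CCL14 and CCL23, of which CCL23 had a log2 fold change of 1.53 and CCL14 of 0.084, beside -0.052 for CCL5. Beside CXCL10 lie ART3, an ADP-ribosyltransferase family gene, with a log2 fold change of -1.13 ± 0.64, and SDAD1, with 0.76 ± 0.52 (SE). USO1, a vesicle tethering factor on the far side of SDAD1, had 0.045 ± 0.22. LOC482194, near CXCL8, had 1.37 ± 0.46, and TMEM98, near CCL2, had 0.93 ± 0.36. The mean signal of LOC482194 was 149 in HHcy and 47.7 in controls, the latter under the 69.7 at which the filter was set. LOC482194 was thus tested only because of its HHcy signals, and the size of its fold depends on the pseudocount. TAF15, near CCL5, had 0.55 ± 0.28. None of these 6 passed, with limma adjusted p from 0.189 to 0.929.

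The genes whose pattern was most like that of CXCL8 were ranked by Pearson's r of log2 values over the 8 arrays, among 5014 other genes, as a description. The 6 highest were ABRAXAS1, a scaffold of a BRCA1 complex (0.98), DMXL2, a regulator of the vacuolar proton pump (0.98), VPS33A, a vesicle tethering subunit (0.98), TMEM190 (0.98), ATXN7L3, a subunit of the SAGA deubiquitinase module (0.97), and SERPINA1, which encodes alpha-1 antitrypsin (0.97). All 8 arrays share the split into groups, and r of the deviations from the group means was 0.91 for ABRAXAS1, 0.90 for ATXN7L3 and 0.77 to 0.82 for the other 4. These 6 were picked by r on the same arrays, so a high r of deviations is no separate evidence of likeness. The log2 SD of CXCL8 was 0.90 in HHcy and 0.16 in controls, so this r rests mainly on the HHcy dogs. Among them HHcy 5 and HHcy 6, highest for CXCL8, had actin 3'/5' ratios of 15.3 and 600. By the same measure CCL2 ranked 338 (0.81), CXCL10 ranked 940 (0.67) and CCL5 ranked 3033 (-0.0089), and r of their deviations from the group means was 0.20, -0.099 and 0.024. SERPINA1 had 526 ± 438 in HHcy hearts and 18.4 ± 13.0 in control hearts (SD, n = 4 each), the control mean lying under the pseudocount.

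**Figure D5:**
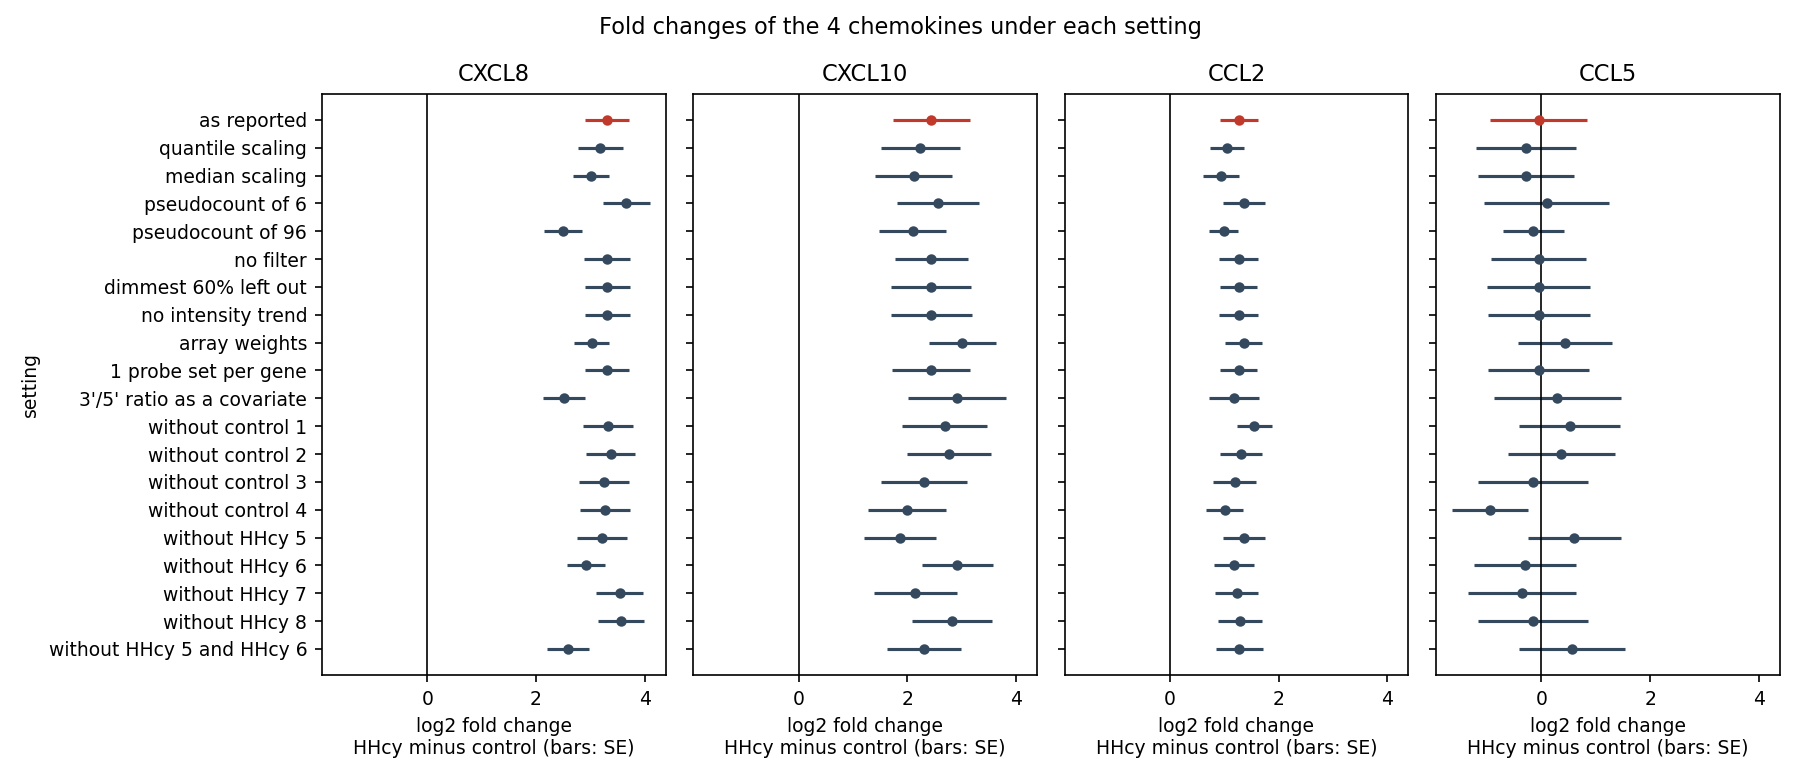
log2 fold change, HHcy minus control, of the 4 chemokines as reported (red) and under each of 19 other settings (dark), with SE bars. CXCL8 runs from 2.49 to 3.66, CXCL10 from 1.87 to 3.01, CCL2 from 0.94 to 1.55 and CCL5 from -0.95 to 0.61, on both sides of 0.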

How the data were processed

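Total RNA from the cardiac tissue of 8 dogs was hybridised to 1 array each. The authors deposited linear intensities per probe set. The submitters' processing notes name MAS5 for them, with no version given in the sources used here. Every deposited array had a trimmed mean signal of 500.08 to 500.10 after removal of the lowest and highest 2%, so arrays were not rescaled. Samples were grouped by title, and the labels give no batch.

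From these values, log2(signal + 24) was computed, 24 being the 20th percentile of all signals, and the 77 control probe sets and the dimmest 40% were left out. Groups were compared with limma 3.58.1 in R 4.3.3 (lmFit, eBayes with an intensity trend, Benjamini-Hochberg over all 14301), tested on simulated data. The number of arrays limits the precision.

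The members, gene lists and settings were chosen with earlier results of these data known. Named genes were up to 4 passing genes of each list or else the 2 of lowest p, and the 6 most like CXCL8. C1QA, CCL3, CCL4 and other genes outside that rule were named after their values were seen. Gene names come from the platform annotation and were not checked against probe sequences.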

Additional observations from a re-analysis of the deposited data

Results flagged for a closer look

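Within a group of 4 dogs, 1 array stood far from the other 3 in 2 of 54 groups of values examined, and chance alone gives about 1 in 20. GNB1 had a signal of 4615 in control 2, against 1750 to 2034 in the other controls. ABRAXAS1 had 273 in control 2, against 218 to 226 in the other controls. Neither CXCL8, CXCL10, CCL2 nor CCL5 had such an array.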

How the results depend on the processing

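CXCL8, CXCL10 and CCL2 kept a positive log2 fold change under all 19 alternatives run, and CCL5 was positive in 7 of 19. CXCL8 moved by more than the spread between replicates in 3 of them, to 2.49 with a pseudocount of 96, 2.51 with the 3'/5' ratio in the fit and 2.59 without HHcy 5 and HHcy 6. Leaving out 1 array at a time gave 2.92 to 3.56. The 14 calls over all probe sets became 7 with quantile scaling, 22 with median scaling, 9 with the dimmest 60% left out, 76 with array weights, 8 with 1 probe set per gene, 5 with the 3'/5' ratio in the fit, 5 without HHcy 5 and HHcy 6, and 3 to 31 with 1 array left out (9, 3, 4 and 3 without control 1, 2, 3 and 4, 5 without HHcy 5 and 31 without HHcy 8). The cause was not tested, except that fewer probe sets or arrays enter some of these. The 22 other genes that the naming rule picked kept their direction in every setting run, and further genes named in the text were not rerun. FOS and DMXL2 passed with array weights, and SERPINA1 with array weights, with median scaling and without HHcy 8. The control signals of SERPINA1 reached only 34.0 and those of TMEM190 only 62.2, under the 69.7 at which the filter was set. Both were thus tested only because of their HHcy signals. SELE, TMEM190 and SERPINA1 were too dim for some settings. No paired analysis was possible because the groups share no replicate number.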
